A study of Mus musculus with 2 samples.

Results

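Splice junctions that the deposited junction list does not flag as annotated, but that lie inside a gene and were read repeatedly, are described here in embryonic mouse central nervous system. A junction was a member when its name in the list carried A=0, when both of its read counts were at least 10, and when both of its ends lay inside the span of a gene of Ensembl release 65 on the same strand of mm9. Of 1270088 junctions in the list, 11959 were members. They lay in 5600 genes, and 214 of them (1.79%) lay in the span of more than 1 same-strand gene. The comparison set is the 138126 junctions with A=1 that met the same read minimum and lay inside a gene, called flagged junctions below. A further 3741 junctions with A=0 met the read minimum but did not lie inside a gene. Members were thus chosen by the flag, by both read counts and by the gene spans, so these are described and not tested.

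The RNA came from central nervous system tissue of C57BL/6J embryos at embryonic day 11.5, with no treatment or genotype contrast. Polyadenylated RNA of littermates of mixed sex was sequenced as stranded paired-end libraries, giving biological replicates 1 and 2 of 1 group. The list gives 2 read counts per junction, and no label ties either to a replicate, so they are called the first and the second read count. Over all junctions the first count summed to 72242374 reads and the second to 57754886. The gene tables of replicates 1 and 2 held 120461126 and 108007021 expected counts in genes. With 1 group and 1 library behind each count, no p-value is given, and the intervals below are 95% Wilson intervals that cover counting error only. Junctions of a gene share its reads and are not independent.

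The markers of the labelled tissue were present. All 6 progenitor markers and all 6 neuron markers reached 1 TPM in both replicates, with sums of 3860 and 1930 TPM for progenitors and 1380 and 1160 for neurons. Blood markers summed to 15685 and 20384 TPM, endothelium to 67.8 and 76.2, mesenchyme to 453 and 383, and liver and yolk sac to 659 and 279. Skeletal muscle markers summed to 0.55 TPM in replicate 1 and 53.6 in replicate 2, and Hoxb9, a trunk-level Hox gene, stood at 0.17 and 28.3 TPM. The libraries thus stood apart in these genes. Since neither read count is tied to a replicate, the part of this in differences between the counts was not tested. In bulk tissue, fewer cells of a type and less RNA per cell cannot be told apart.

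An intron is removed between a donor, the splice site at its upstream end, and an acceptor, the splice site at its downstream end. Most introns begin with the letters GT and end with AG, and an exon can be lengthened, shortened, skipped or newly included when another donor or acceptor is used. Alternative splicing is widespread in the nervous system, where very short exons of synaptic and cytoskeletal genes are a known feature of neurons.

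The sequences that carry the main patterns are shown first. All were read from GENCODE M21 transcripts on mm10, since no mm9 genome was used here, and each was matched to the deposited mm9 junction by gene identifier and by intron and exon length. Coordinates in the lines below are mm10 positions of the M21 intron or exon, whereas all other coordinates are mm9. The first set shows joined exons around an annotated intron whose member ended its intron exactly 3 bases farther downstream. The capitals mark the 3 exon bases that the member left out, and the lower-case letters before them are the end of the upstream exon.
Ralgapa1 (chr12:55604272-55612072, minus strand): gtttatctgaagCAGgatcct
Rpl22l1 (chr3:28805544-28806499, plus strand): aacatggcgccgCAGaaagac
Chd7 (chr4:8855515-8856670, plus strand): cgcagccagaagCAGgagccg
Tpx2 (chr2:152855003-152867183, plus strand): cgaggttgtcagAAGacagtc
In each of these the left-out bases end in AG, the letters that close most introns.

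Shifts of a donor are shown for Ddx17, Mrpl42 and Col2a1. The capitals mark the exon bases that the member removed at the end of the upstream exon.
Ddx17 (chr15:79530518-79531671, minus strand): gaggggGTAAGGgaggccgctcac
Mrpl42 (chr10:95500523-95501889, minus strand): cgcgcgGTGAGTAGCCGTGGAGgaacgaaa
Col2a1 (chr15:97999292-97999645, minus strand): gctaatGTAAGgaaaattagggc
The stretches removed by these new donors begin with GT.

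Another set holds members with the same intron length as an annotated intron and both ends moved by the same number of bases. The capitals mark the exon bases that the move crossed, which lie at the end of the upstream exon in Pkm, Nedd4 and Sod1 and at the start of the downstream exon in Sf3b1, Meis1 and Meis2.
Pkm (chr9:59671726-59671920, plus strand): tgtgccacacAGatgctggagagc
Nedd4 (chr9:72662614-72669951, plus strand): tcggaggacgaGgtatgggagttt
Sod1 (chr16:90220930-90222779, plus strand): ttcgagcagAAGgcaagcggtgaa
Sf3b1 (chr1:54988156-54990302, minus strand): gttaatggacagGgaccttgttca
Meis1 (chr11:18884477-18885592, minus strand): ccaaccgagcagTCAGccaaggga
Meis2 (chr2:115867359-115868744, minus strand): caaatcgagcagTGAGccaaggag
The crossed bases ended in G in all 6.

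The last set holds whole exons, in capitals, between the ends of their neighbouring exons. Ensembl 65 lacked the first 8, which pairs of members surround, and Asap1 and Ptprk are annotated exons that a member skipped. The first 8 lie inside a coding part of an M21 transcript.
Cyth2 (chr7:45808730-45808732, minus strand): taaagctggGAGggggccggg
Agap1 (chr1:89610284-89610295, plus strand): ctccagaagATATGGACGCAGgtggcaggt
Robo2 (chr16:74008775-74008786, minus strand): ctgtccgagTTCGCCCTGTTGctcctccac
Ptprf (chr4:118252076-118252093, minus strand): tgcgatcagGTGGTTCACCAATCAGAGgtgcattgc
Cers6 (chr2:69105743-69105766, plus strand): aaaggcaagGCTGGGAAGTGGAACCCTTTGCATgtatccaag
Ptprs (chr17:56427791-56427817, minus strand): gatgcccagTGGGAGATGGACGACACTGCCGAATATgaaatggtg
Ank3 (chr10:69980824-69980850, plus strand): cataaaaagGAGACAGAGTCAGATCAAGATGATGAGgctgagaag
Bptf (chr11:107044492-107044665, minus strand): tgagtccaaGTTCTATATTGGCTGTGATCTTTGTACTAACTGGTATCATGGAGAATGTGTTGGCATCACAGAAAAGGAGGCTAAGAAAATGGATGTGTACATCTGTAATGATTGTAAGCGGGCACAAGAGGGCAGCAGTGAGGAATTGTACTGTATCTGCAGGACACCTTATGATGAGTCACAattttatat
Asap1 (chr15:64153844-64153852, minus strand): gctaacagtTCTAGAAGAgactctcag
Ptprk (chr10:28570174-28570191, plus strand): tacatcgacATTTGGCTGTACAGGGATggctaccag
The lengths of these 10 exons are multiples of 3, the length of a codon, but they are picked examples. An unannotated exon of Cd47, also inside a coding part, has 25 bases. Such a length was found in 45.0% of all unannotated exons and 37.5% of single skipped exons. The share was 39.5% over annotated internal exons.

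Members fell into 6 classes by where their ends lay relative to the annotated exons of the host gene. The largest class joined an annotated donor to an acceptor that Ensembl 65 lacks, called a new acceptor. It held 3502 members (29.3%, 28.5 to 30.1). New donors joined to an annotated acceptor numbered 3305 (27.6%, 26.8 to 28.4). A further 2104 (17.6%, 16.9 to 18.3) joined an annotated donor to an annotated acceptor in a pairing that is not itself an annotated intron. The remaining members had no annotated end. Slid copies, which keep the length of an annotated intron with both ends moved by the same number of bases, numbered 918 (7.68%, 7.21 to 8.17). Near copies, with both ends within 25 bases of an annotated intron but of another length, numbered 571 (4.77%, 4.41 to 5.17). For 1559 members (13%, 12.4 to 13.7) neither end matched and no annotated intron lay that close.

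The second flag of the list, C, which the rule did not use and whose meaning is not given in the sources used here, split these classes. It was set on 9242 members (77.3%) and on 99.7% of flagged junctions. Among new acceptors it was set on 96.0%, among new donors on 95% and among new pairings on 99.8%. It was set on 5.34% of slid copies, 5.08% of near copies and 36.0% of members with neither end annotated. The letters beside the new sites followed the flag. If C was set from such letters, the shares with C below were fixed by the split itself, and this was not tested. They are therefore no independent property of the new sites. Where a new acceptor lay inside an annotated exon and C was set, the exon letters just before it were AG in 1500 of 1500 members. Without C they were AG in 2 of 18. The same letters stood at exon bases 2 and 3 of 5.29% of flagged introns. Where a new donor lay inside an exon and C was set, the letters just after it were GT in 709 of 709. Without C they were GT in 0 of 31, which allows a share of up to 11.0% by the Wilson bound, and GC in 26 of 31. GT stood 4 bases before the exon end of 1.52% of flagged introns.

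**Figure D1:**
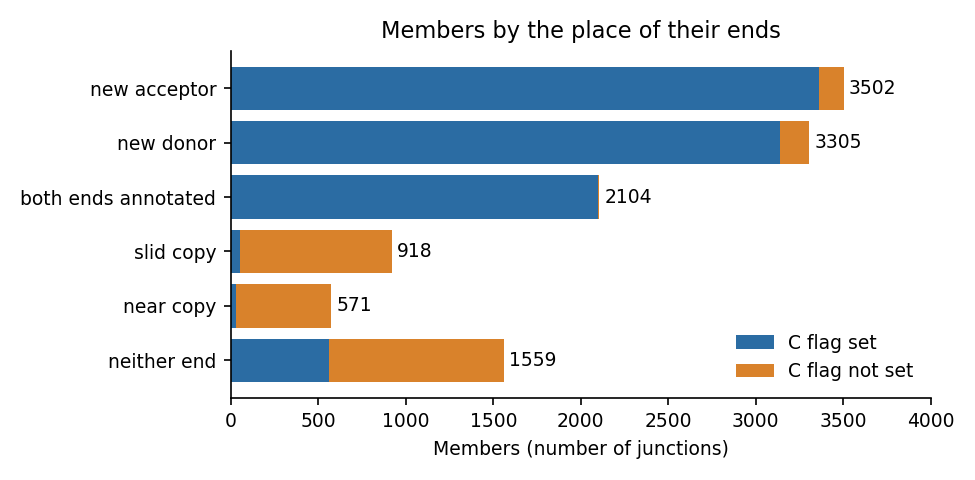
Bars give the number of members in each class by the place of their ends, with members that carry the C flag in blue and the others in orange; the number at the bar end is the class total. Nearly all of the 3502 new acceptors, 3305 new donors and 2104 new pairings carry the flag, and most of the 918 slid copies and 571 near copies do not.

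New acceptors lay close to annotated ones. Of the 3502, 31.9% (30.4 to 33.5) lay within 6 bases of the nearest annotated acceptor of the gene and 63.9% (62.3 to 65.5) within 100 bases. The most common place was 3 bases downstream, which shortens the exon by the length of 1 codon, with 462 members (456 with C). Whether these exons are coding was not tested. Shifts of 4, 5 and 6 bases downstream followed with 182, 96 and 61 members, and a shift of 3 bases upstream, which lengthens the exon, had 163. Only 25 lay 1 base downstream and 37 lay 2 bases downstream. Between 1 and 100 bases, 49.1% (47.1 to 51.2) of the shifts were multiples of 3. Between 7 and 100 bases, where the 3-base peak plays no part, the share was 36.0% (33.2 to 38.8).

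At the acceptors 3 bases downstream, the annotated exon began with CAG in 56.1% (51.4 to 60.6) of the 437 members with C that were read in M21. It began with AAG in 28.4%, with TAG in 9.84% and with GAG in 5.72% (3.90 to 8.31). Over the 7126 flagged introns whose exon also carried AG at bases 2 and 3, the order was different, with GAG at 64.9% (63.7 to 66.0) and CAG at 13.2%. The base before AG thus differed between members and background by far more than the counting intervals. AG at bases 2 and 3 is the condition for both sets, while the base before it was not used by the rule.

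Members 3 bases downstream were used at a median of 10.2% in the first count and 9.85% in the second. Usage is the percent of reads, over all junctions of the list at the annotated end, that went to the member. For the members 3 bases upstream the medians were 19.7% and 20.3%, and for those 4 bases downstream 4.73% and 3.95%. The middle 50% of the members 3 bases downstream ranged from 4.44 to 23.7% in the first count. A few took nearly all reads. At Ralgapa1, a subunit of a Ral GTPase-activating complex, the member (chr12:56705256-56713059) had 222 and 379 reads and a usage of 100% and 99.7%. At Rpl22l1, a ribosomal protein paralog, the member (chr3:28704466-28705424) had 1546 and 1991 reads against 17 and 20 on the annotated junction. At Chd7, a chromatin remodeler of neural crest and neural progenitors, it (chr4:8782662-8783820) had 785 and 180 reads against 257 and 55, a usage of 75.3% and 76.6%. At Tpx2, a spindle assembly factor, it (chr2:152680739-152692922) had 358 and 124 reads against 1648 and 525, a usage of 17.8% and 19%. In these 4 genes the usage lay close in both counts, although the reads of Chd7 and Tpx2 were higher in the first. The member of Npm1, a nucleolar protein, at the same shift (chr11:33057046-33059933) lacked C. It had 476 and 42 reads beside 50642 and 6476 on the annotated junction, and the 3 exon bases there were TGA.

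**Figure D2:**
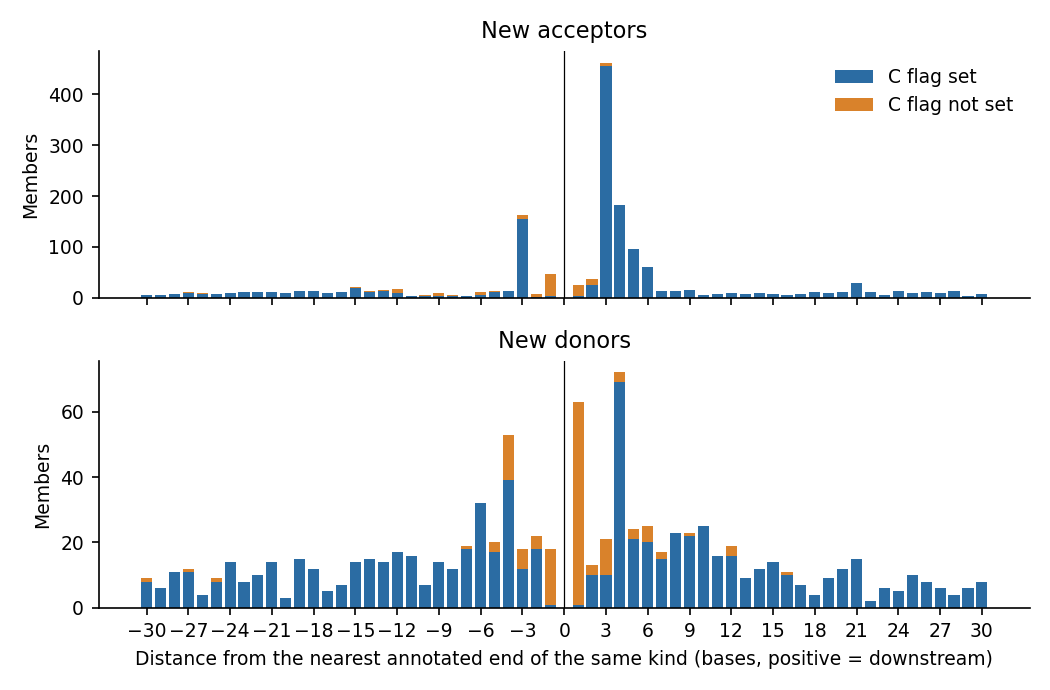
Bars count members by the distance in bases from the new end to the nearest annotated end of the same kind, positive downstream, for new acceptors (top) and new donors (bottom); blue carries the C flag and orange does not. The acceptor panel has its peak of 462 members at +3, and the donor panel has peaks of 72 members at +4, 63 at +1 and 53 at -4.

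New donors were spread more widely. Of the 3305, 11.5% (10.5 to 12.7) lay within 6 bases of the nearest annotated donor and 42.5% (40.8 to 44.1) within 100 bases. The intervals of both shares lie below those of the acceptors. The most common shift was 4 bases downstream with 72 members, 69 of them with C, and 53 lay 4 bases upstream, 39 of them with C. A shift of 1 base downstream had 63 members, of which 1 carried C. Between 1 and 100 bases the shift was a multiple of 3 in 32.6% (30.2 to 35.1) of cases. Median usage at 4 bases downstream was 7.47% and 7.01%.

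Of the 10 members with the highest summed reads, 5 had a new site, in Serbp1, Ddx17 and Myl6, whose 2 junctions are given with its exon below. Serbp1, an mRNA-binding protein, had 2 of them. Its acceptor 18 bases downstream (chr6:67222022-67222150) had 11811 and 4712 reads beside 5415 and 4435 on the annotated junction, which gave a usage of 68.5% and 51.5%. Its next intron (chr6:67222223-67222857) ended 45 bases downstream of the annotated acceptor with 8429 and 3345 reads, a usage of 92.6% and 76.3%. Both usages were higher in the first count. At Ddx17, an RNA helicase, the donor 6 bases upstream (chr15:79360948-79362107) had 8098 and 4364 reads beside 5011 and 2552, a usage of 61.2% and 62.3%. Other new sites were those with high reads in the gene lists. At Hnrnpc, an hnRNP that binds uridine tracts, the acceptor 21 bases downstream (chr14:52695091-52695287) had 3745 and 1056 reads and a usage of 41.6% and 36.6%. At Eif4a2, a translation initiation helicase, the donor 4 bases downstream (chr16:23112535-23113239) had 1322 and 1030 reads and a usage of 51.4% and 38.5%. At Hnrnpa2b1 a new donor (chr6:51411433-51411918) had 1426 and 3036 reads and a usage of 92.6% and 90.8%. Each of these members took at least 36.6% of the reads at its end in both counts.

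Some members left almost no reads for the annotated junctions at their end. Besides Ralgapa1 and Rpl22l1, the 10 with the highest usage and at least 100 reads at the end were in Rnf4, a ubiquitin ligase for SUMO-modified proteins, Asap1, Pitpna, Zzef1, Capn2, Ddx11, Penk and Mrpl42. The lower usage of each was between 98.9 and 99.7%. Rnf4 (chr5:34691393-34692550), Pitpna and the protease gene Capn2 lacked C. Their new ends lay 10, 8 and 12 bases from the nearest annotated end of the same kind in the gene. No annotated intron of the gene lay within 25 bases of these members at both ends. Mrpl42, a protein of the mitochondrial ribosome (chr10:94963157-94964539), had a donor 16 bases upstream with 297 and 741 reads, against 0 and 4 on the annotated junction. Penk, the enkephalin precursor (chr4:4065294-4065781), ended 1 base upstream of the annotated acceptor with 146 and 235 reads, against 0 and 1.

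Members that joined annotated ends in a new pairing mostly skipped an exon. Of the 2104, 1935 (92.0%) joined exons of the same annotated transcript, and for 1675 the skipped exons could be named without ambiguity. Of these 1500 (89.6%) skipped 1 exon, 121 skipped 2, 36 skipped 3 and 18 skipped 4 or more. The length of a single skipped exon was a multiple of 3 in 37.5% (35.1 to 39.9). The share was 39.5% (39.2 to 39.8) over 116517 annotated internal exons between flagged junctions, so the intervals overlap. The median usage of new pairings was 9.15% and 7.61%, and 158 of 2044 with a usage (7.73%) took at least 50% in both counts.

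The 10 new pairings with the highest usage and at least 100 reads at the donor each took 95% or more in both counts. They were in Asap1, Hnrnpu, Sec31a, Tacc2, Smarca2, Tmed4, Ptprk, Heg1, Serpinh1 and Btbd7. Asap1, a GTPase-activating protein for Arf, skipped an exon of 9 bases (chr15:63984493-63990443) with 157 and 225 reads, a usage of 100% and 99.6%. Ptprk, a receptor tyrosine phosphatase, skipped an exon of 18 bases (chr10:28289780-28293173) with 103 and 176 reads, a usage of 100% and 96.7%. Hnrnpu, a nuclear scaffold RNA-binding protein, skipped 51 bases (chr1:180253845-180255373) with 383 and 262 reads, and Smarca2, an ATPase of the BAF complex, skipped 35 bases (chr19:26824438-26826313) with 428 and 104 reads. Serpinh1, the collagen chaperone, skipped 44 bases (chr7:106497975-106501562) with 3096 and 5376 reads and a usage of 95.3% and 96.0%. It was the deepest of the 10. In the deposited mm10 transcript tables, the M21 transcripts with this intron carried 80% of the TPM of Serpinh1 in replicate 1 and 89.6% in replicate 2. The same share was 32.3% and 62.2% in Asap1, 45.5% and 27.5% in Hnrnpu, 32.6% and 17.8% in Smarca2, and 100% in both for Btbd7. Usage at the donor and the share of transcripts were therefore far apart in Asap1, Hnrnpu and Smarca2. The 2 measures have unlike denominators, the reads at 1 donor and the TPM of the whole gene. Transcripts that do not use the donor count in the second only.

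Pairs of members also surrounded exons that Ensembl 65 lacks. An unannotated exon was counted where 2 members with C ended and began 3 to 400 bases apart, no annotated exon overlapped the stretch, and both outer ends were annotated. The conditions on C and on the outer ends were added after the values were seen, because without them the count was 19184 pairs, of which 18183 lay in Smo. There were 449 such exons in 393 genes, with a median length of 95 bases. They are not all independent. ENSMUSG00000062540 and ENSMUSG00000078437 each held an exon of 61 bases with equal counts, and overlapping exons of Thoc7 and of Cpsf7 were counted separately. The 2 junctions of an exon were also counted separately, so these data do not show both on the same molecule. For 438 of the 449 a junction that skips the exon was in the list, and 431 of these skipping junctions were flagged. Inclusion, the mean of the 2 flanking counts as a percent of itself plus the skipping count, had a median of 12.4% in the first count and 12.6% in the second. In 48 exons it was at least 50% in both counts, and in 155 it was under 10% in both. The length was a multiple of 3 in 45.0% (40.4 to 49.6), against the 39.5% of annotated internal exons, an interval that lies above that value. For the 421 exons above 27 bases alone it was 43.2% (38.6 to 48.0), an interval that contains 39.5%.

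The 10 unannotated exons with the most reads on their weaker junction included forms both above and below 50% inclusion. Myl6, a light chain of nonmuscle and smooth muscle myosin, had an exon of 45 bases (chr10:127928776-127928820) whose junctions had 6724 and 6696 reads in the first count and 4896 and 6177 in the second. The skipping junction had 726 and 243 reads, so inclusion was 90.2% and 95.8%. Ctbp1, a transcriptional corepressor, included 193 bases (chr5:33612091-33612283) at 89.5% and 77.9%. Bptf, the large subunit of the NURF remodeler, included 174 bases (chr11:106905806-106905979) at 73.6% and 67.0%. Slc25a27, a mitochondrial carrier, included 83 bases (chr17:43796765-43796847) at 71.2% and 79.7%. In these 4 genes inclusion was the major form in both counts. Inclusion was lower in the RNA helicase Dhx9 (139 bases, 34.8% and 25.1%), Hnrnpc (26 bases, 22.4% and 31.8%), Ranbp3 (201 bases, 16.1% and 19.9%), Ddx17 (236 bases, 15.1% and 8.65%) and Akap8 (158 bases, 12.3% and 17.9%). The flanking counts of Akap8 were uneven, at 1480 and 296 reads in the first count. Those of Hnrnpc were 530 and 689 in the first count and 1422 and 458 in the second. Only 1 of its flanks thus rose with its inclusion, and the means hide such gaps.

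Exons of 27 bases or less formed a group of 28 in 27 genes. Their lengths were multiples of 3 in 20 of 28 (71.4%, 52.9 to 84.7), against 43.2% (38.6 to 48.0) of the 421 longer unannotated exons. The limit of 27 bases was chosen after lengths were seen. Robo2, a receptor for Slit guidance cues, had an exon of 12 bases (chr16:74009020-74009031) with inclusion of 59.0% and 72.2%. Agap1, a GTPase-activating protein for Arf, had 12 bases (chr1:91506859-91506870) with 56.7% and 48.2%. Ank3, the scaffold ankyrin-G, had 27 bases (chr10:69443572-69443598) with 59.4% and 39.0%. In each of these inclusion was between 39 and 72.2%, so forms with and without the exon were both read.

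The receptor tyrosine phosphatases Ptprs, Ptprf and Ptpra were all in the group. Ptprs, which binds proteoglycans on axons, had an exon of 27 bases (chr17:56567214-56567240) at 37.1% and 33.8%, and another of 18 bases (chr17:56588339-56588356) at 0.482% and 0.893%. Ptprf had 18 bases (chr4:117924681-117924698) at 5.86% and 7.69%, and Ptpra had 27 bases (chr2:130335566-130335592) at 4.01% and 5.39%. Only the 27-base exon of Ptprs was read at over 10% among these 4. Cyth2, an exchange factor for Arf, had the shortest exon, of 3 bases (chr7:53064100-53064102), at 46.8% and 35.9%. Its flanking counts were uneven, at 224 and 26 reads in the first count and 90 and 31 in the second. Cers6, a ceramide synthase, had 24 bases at 44.2% and 40.3%, and Clasp1, a microtubule plus-end protein, had 24 bases at 10.4% and 10.5%. Over all 28 the median was 9.44% and 11.5%, and the range was 0.482 to 59.4% in the first count and 0.893 to 72.2% in the second.

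**Figure D3:**
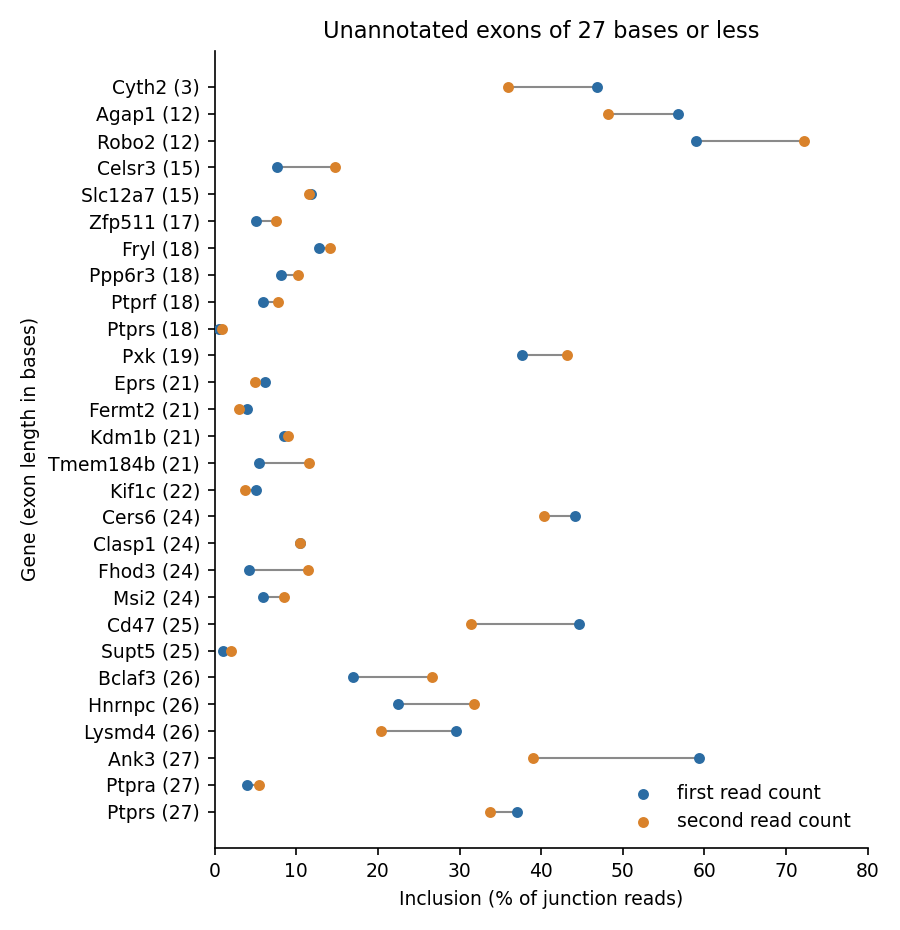
Each row is an unannotated exon of 27 bases or less, named by gene with its length in bases, and the points give inclusion in percent in the first (blue) and second (orange) read count. Robo2, Agap1, Ank3, Cyth2, Cers6, Cd47 and Pxk reach over 40% in at least 1 count, and most other exons lie below 20%.

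M21, a later annotation than the one behind the flag, held some of these exons. An exon was found there when an M21 transcript of the gene had the same exon length between introns of the same 2 lengths. This was so for 218 of 449 (48.6%, 44.0 to 53.2), of which 85 lay inside a coding part and 86 were in a transcript typed as a target of nonsense-mediated decay, the pathway that removes messages with a premature stop. The length was a multiple of 3 in 39.5% (29.9 to 50.1) of the 86 and in 60.6% (52.1 to 68.5) of the 132 others, so the intervals do not overlap. Length and type are not independent, since a length that is not a multiple of 3 shifts the frame and can bring a premature stop. Median inclusion was 12.8% and 13.7% for exons in such a transcript and 19% and 20.6% for the others. The exons of Dhx9, Akap8, Akap8l and Hnrnpll were in transcripts of this type only. Exons of Myl6, Ctbp1, Ptprs and Bptf were in protein-coding transcripts, but only those of Ptprs and Bptf lay inside the coding part.

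Slid copies made up 5 of the 10 members with the highest summed reads. Pkm, the glycolytic pyruvate kinase, led with 16286 and 8712 reads (chr9:59519531-59519725), both ends 2 bases upstream of an annotated intron. The splicing factor Sf3b1 had 8215 and 7432 reads (chr1:55044999-55047145, 1 base downstream) and the splicing GTPase Eftud2 had 11199 and 2092 (chr11:102732496-102738922, 1 base downstream). Nedd4, a ubiquitin ligase, had 8755 and 5286 (chr9:72510420-72517757, 1 base upstream), and Sod1, a superoxide dismutase, had 7242 and 6017 (chr16:90221172-90223021, 3 bases upstream). In all 5 the annotated intron itself had no row in the list. Over the class this held for 908 of 918 (98.9%). The median reads of slid copies were 140.5 and 150, against 31 and 25 over all members and 164 and 169 over flagged junctions.

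Slid copies moved in a direction that depended on the strand. Of the 869 without C, 859 (98.8%) moved toward the lower genome coordinate, which is upstream for plus-strand genes and downstream for minus-strand genes. On the plus strand 342 moved by 2 bases, 85 by 3 and 65 by 1, and on the minus strand 237 moved by 1 base and 55 by 2. The crossed exon bases repeated a few letters. On the plus strand they were AG in 323 of 326 moves of 2 bases that were matched in M21, CAG in 73 of 82 moves of 3 bases and G in 55 of 58 moves of 1 base. Over all flagged introns the upstream exon ended in AG in 56.1%, in CAG in 23.7% and in G in 81.3%. The last lies below the 94.8% (85.9 to 98.2) of the moves of 1 base, by a smaller gap than for AG and CAG. Among flagged introns without C, the upstream exon ended in G in 28.9% on the plus strand. Their downstream exon started with G in 7.29% on the minus strand. On the minus strand the crossed bases were G in 217 of 230 moves of 1 base and GC in 40 of 51 moves of 2 bases, against downstream exons that start with G in 49.3% and with GC in 9.10% of flagged introns. Of the 812 matched slid copies without C, 806 had an M21 exon beside the intron that kept its Ensembl 65 length. The letters inside the introns were not read, so whether the reads could also be placed at the annotated ends was not tested. If they could, the crossed bases would repeat letters of the intron's own ends. The shares of letters above would then be fixed in part by the class itself and no independent property.

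Slid copies with C were fewer and moved otherwise. Of the 49, 47 (95.9%) moved 4 bases downstream on either strand, and the crossed bases ended in AG in 13 of 13 matched on the plus strand and 27 of 27 on the minus strand. Meis1 and Meis2, paralogous homeodomain cofactors of neural progenitors, both showed this shift. Meis1 had 192 and 834 reads (chr11:18784476-18785591) and Meis2 had 230 and 535 (chr2:115693091-115694476). Neither had a row for its annotated intron, and both had more reads in the second count.

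**Figure D4:**
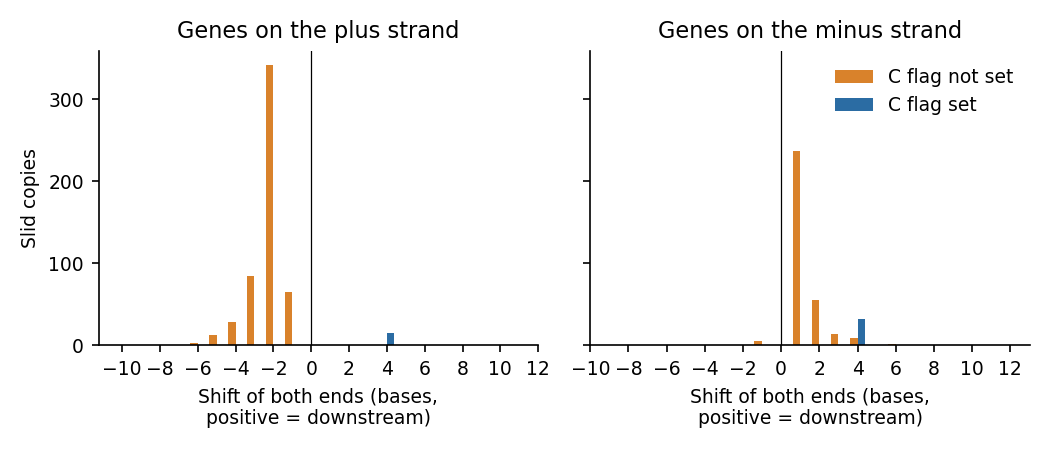
Bars count slid copies by the shift of both ends in bases, positive downstream, for genes on the plus strand (left) and minus strand (right); orange lacks the C flag and blue carries it. The highest bars are 342 members at -2 on the plus strand and 237 at +1 on the minus strand, and the blue bars stand at +4 on both.

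Near copies were mostly minor forms beside their annotated intron. For 532 of 571 (93.2%) the annotated intron was in the list, and the near copy took a median of 4.44% and 4.53% of the reads of the pair. Their intron was 1 base shorter than the annotated one in 276 cases (48.3%, 44.3 to 52.4). Hbb-y, the embryonic beta globin, showed the widest gap among the named near copies, with 124 and 150 reads (chr7:111000513-111001258) beside 175622 and 216832. Rps24, a ribosomal protein of the small subunit, had 4337 and 620 reads (chr14:25312729-25314989) beside 6544 and 905, so a near copy was not always small. Agrn, the synapse organizer agrin, had 434 and 402 reads (chr4:155543453-155543873) beside 357 and 485.

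Of the 1559 members with neither end annotated, 368 lay in Smo, the membrane transducer of Hedgehog signals, which had 371 members in all, 3 of them with C. Their 5th percentile of starts and 95th percentile of ends were chr6:29697720 and chr6:29699059. They used 210 donors and 138 acceptors, had a median length of 397 bases, and the highest first and second counts of any of them were 1259 and 619. Cacfd1 had 34 members (2 with C) and Epm2a, which encodes the glycogen phosphatase laforin, had 28 (2 with C). The 28 of Epm2a had a median length of 269.5 bases. Outside Smo, members with neither end and without C numbered 629 in 410 genes, with a median length of 145 bases, and 19.4% were shorter than 50 bases. Those with C numbered 562 in 359 genes, with a median of 624 bases, and 2.31% were shorter than 50 bases. The 5 shortest members, all of 31 bases and without C, were in Clcn4, Marcks, Rcc2, Ints13 and Epb41l1.

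Firre, a nuclear noncoding RNA whose transcript carries a tandem repeat, had the second most members and a different makeup. All of its 73 members carried C, they joined 35 donors to 31 acceptors, and 56 had neither end annotated. They had a median length of 3290 bases and 11447 and 7215 reads in all. The gene stood at 42.1 and 31.6 TPM. Besides Cacfd1 and Epm2a, the genes next in number were 2610005L07Rik with 42 members (22 with C, a median length of 127272 bases), ENSMUSG00000091793 with 33 (30 with C), Hnrnpa2b1 with 20, Ptprs with 19 and Sos2, an exchange factor for Ras, with 18. Gm20388 and another gene without a symbol had 17 each. Of all 5600 host genes 3002 had 1 member, 2163 had 2 to 4, and 435 had 5 or more.

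Intron length was close to that of flagged junctions overall and differed by class. The median was 1252 bases over members and 1326 over flagged junctions. It was 4481.5 bases for new pairings, which span at least 2 annotated introns where they skip an exon, 983 for new acceptors and 1275 for new donors. Members with neither end annotated had the shortest, with a median of 348 bases. The ubiquitin-conjugating enzyme Ube2e2, the transcription factor Npas3, the membrane scaffold Ank2 and ENSMUSG00000072735 held 4 of the 5 longest members.

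Usage could be computed for 8723 members. In the first count its median was 8.38%, with a middle 50% of 3.18 to 22.2%, and in the second 7.60%, with 3.05 to 19.9%. Members were thus mostly minor forms at their annotated end, with 30.4% under 5% in both counts and 6.98% at 50% or more in both. Flagged junctions had medians of 99.1% and 98.9%. The read minimum of the rule bears on the numerator of usage, so this is a description of the members only.

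A member was called different between the counts when its usage differed by at least 20 percentage points and the 2 Wilson intervals did not overlap. This compares 2 libraries and has no replicate check. By this rule 304 of 8723 members (3.49%) were called, against 1.55% of 69884 flagged junctions with a usage and 1.77% of both sets together. Of all 8723, 219 (2.51%) were called lower in the second count, against 0.674% of flagged junctions and 0.878% of both sets. Another 85 (0.974%) were called higher, against 0.88% of flagged junctions and 0.891% of both sets. Usage of most flagged junctions is near its upper limit, so the shares of calls are not on a like footing. The 5 with the largest difference were all lower in the second count. In Rps24 a new donor (chr14:25310247-25310971) had 234 and 60 reads, a usage of 71.3% and 13.1%, while the annotated junction at the same acceptor had 58 and 365. In Yipf2, a Golgi membrane protein, a skipped exon of 61 bases (chr9:21396663-21397170) went from 100% to 44.7% on 22 and 17 reads. The other 3 were in 2610307P16Rik (83.8% and 24.7%), Metap1d (75% and 24%) and the nuclease scaffold Slx4 (70.0% and 19.5%). Of the 5, Rps24 was the only one with more than 100 reads in a count.

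**Figure D5:**
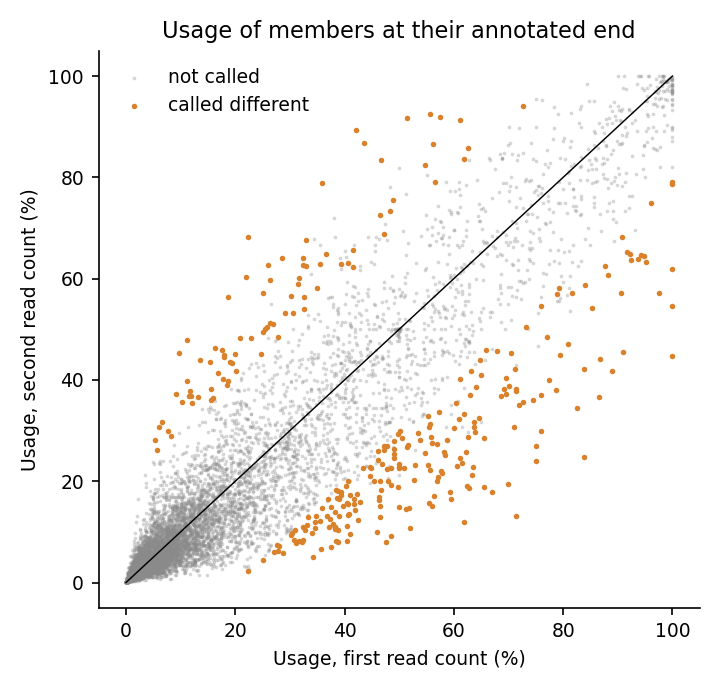
Each point is 1 of 8723 members, placed by its usage in percent in the first (x axis) and second (y axis) read count; orange points are the 304 called different and the line marks equal usage. Most points lie at low usage near the line, and more orange points lie below it (219) than above it (85).

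M21 held an intron of the same length at the same annotated end for part of the members. Of 8636 members of the first 3 classes whose annotated end was found there, 29.1% (28.2 to 30.1) had one. The share was 28.4% for new acceptors, 32.1% for new donors and 25.6% for new pairings. It was 19.9% (18.8 to 21.1) among members with 10 to 19 reads in the lower count, 35% (33.5 to 36.6) with 20 to 99 and 60.4% (56.5 to 64.2) with 100 or more. By usage in the lower count it was 18.3% under 5%, 34.7% from 5 to 50% and 56.9% at 50% or more. Members with more reads or a higher usage were thus more often found in M21, with intervals that do not overlap. At 3 bases downstream of an annotated acceptor it was 22.9% (19.3 to 27), and at 4 bases downstream 10.7% (6.94 to 16.1). Gene models that the authors assembled from the same reads held 18.1% of members, 72.5% of slid copies among them, and 76.5% of flagged junctions, which is no independent support.

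The read minimum of the rule favours genes with more reads, so the levels of genes with a member are a description only. Among 13753 genes with a flagged junction of the same read minimum, 5417 (39.4%) held a member. The median level of genes with a member was 32.9 and 33.8 TPM in replicates 1 and 2, and 9.76 and 11.5 TPM for genes with a flagged junction and no member. The share with a member was 17.8% (16.6 to 19) of genes with a mean of 1 to 10 TPM, 48.8% (47.7 to 50) from 10 to 100 TPM and 67.7% (65.2 to 70.1) at 100 TPM or more. Shares of gene groups below are given with their median level for this reason.

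Of 40 genes of splicing regulators and other RNA-binding proteins, namely SR, hnRNP, Rbfox, Nova, Elavl, Mbnl and related proteins, 35 (87.5%) held a member, with a median level of 170 TPM and 145 members. Of these 145, 48 were new acceptors, 42 new donors and 21 new pairings. Over all members these classes held 29.3%, 27.6% and 17.6%. The group held 10 unannotated exons in 9 genes, beside 449 in 393 of all 5600 host genes. Mbnl1, a splicing regulator, included 54 bases (chr3:60418605-60418658) at 48.9% and 52.4%. The others beside Hnrnpc were at lower inclusion, such as Srsf7 (107 bases, 6.65% and 5.95%), Srsf11 (112 bases, 3.14% and 4.8%), Tra2a (312 bases, 11.6% and 3.77%), Nova1 (102 bases, 12.6% and 21.7%), Elavl1 (58 bases, 7.32% and 4.59%), Rbfox2 (32 bases, 3.53% and 3.14%) and Hnrnpd (73 bases, 0.523% and 0.328%). Of 18 translation and ribosome genes, with a median of 1944 TPM, 16 (88.9%) held a member. C was set on 28 of their 56 members, against 77.3% of all members. The 87.5% and 88.9% of genes with a member lay above the 67.7% of all genes at 100 TPM or more, but the groups are small and were not tested.

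Of all genes with a mean of 10 to 100 TPM, the range of the next 4 medians, 48.8% held a member. In these lists a member was held by 24 of 39 genes of the cytoskeleton and adhesion of young neurons (61.5%, median 49.4 TPM), 17 of 26 chromatin genes (65.4%, 81.2 TPM), 17 of 25 cell cycle genes (68.0%, 94.8 TPM) and 13 of 28 progenitor and patterning factors with a flagged junction (46.4%, 78.0 TPM). The first 3 shares lay above 48.8% and the last below it, and none was tested. The lists were not limited to genes of that range, so 48.8% is not a like background for them. At 100 TPM or more the share over all genes was 67.7%, and the part of gene level in the list shares was not tested. In the young neuron list the unannotated exons were those of Robo2, Ank3, Ncam1 and Agrn. Ank3 had 2, of which the exon of 33 bases (chr10:69416188-69416220) was included at 56.2% and 39.5%. Ncam1, the neural cell adhesion molecule, included 30 bases (chr9:49358645-49358674) at 12% and 7.76%. Slid copies of this list were in Crmp1, a semaphorin signaling protein, with 3988 and 1853 reads, and in the guidance receptor Robo1 with 360 and 346. In the chromatin list they included those of Dnmt1, the maintenance DNA methyltransferase (2980 and 785), and Smarca4, an ATPase of the BAF complex (2135 and 777).

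Genes of cells other than neural ones also held members. In the blood and support cell list 13 of 17 genes (76.5%, median 223 TPM) held 49 members, 22 of them near copies, and C was set on 38.8%. Over all genes at 100 TPM or more, 67.7% held a member. Over all members, 4.77% were near copies and C was set on 77.3%. None of these differences was tested. The list also held a donor of Col2a1, the collagen of cartilage and notochord (chr15:97829723-97830081), with 550 and 353 reads and a usage of 56.3% and 38.3%. Col1a2, a fibrillar collagen of mesenchyme, had a near copy with 522 and 710 reads (chr6:4455909-4458927), beside 0 and 0 on its annotated intron. The single-exon gene Sox11, a factor of young neurons, held a member of 33 bases without C (chr12:28026732-28026764) with 4340 and 374 reads. In the cell cycle list, the near copy of the checkpoint kinase Bub1 had 194 and 302 reads. Its annotated intron had fewer, at 82 and 144. The condensin subunit Smc4 had a near copy with 154 and 47 reads, beside 2043 and 657 on the annotated intron.

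At the edge of the rule, 998 members had 10 reads in the lower count, with a median of 16 in the higher, and 1107 junctions that met every other condition had 9, with a median of 15. The lowest members, with 10 reads in each count, included junctions in Arhgef10l, Aurka, C130021I20Rik, Cep295 and Clec18a. Just outside, with 9 reads in a count and 10 in the other, were junctions in 1700001P01Rik, 2610005L07Rik, 4833420G17Rik, 5730480H06Rik and AW209491. The values on the 2 sides differ by 1 read.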

How the data were processed

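The authors deposited 1 list of splice junctions on mm9 for both libraries, whose name field holds 2 flags and 2 whole-number read counts, and whose deposited count column is their sum in every row. Neither an aligner nor what the flags stand for is stated in the labels or headers. A=1 was set on 188096 junctions, and all of them are introns of the authors' deposited Ensembl 65 exon table, whereas 0 of 1081992 junctions with A=0 are. Exon and gene positions came from the deposited mm9 tables, and TPM and expected counts per gene from the deposited mm10 tables, per the file headers. Symbols and sequences came from GENCODE M21 (mm10). The BED start plus 1 was taken as the first intron base. A junction in several gene spans was assigned to the gene with most matching ends, then the shortest span.

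Ends were matched exactly and by strand. The reads at a usage's shared end had to reach 20 in both counts. Usage was taken at the donor, or at the acceptor for new donors. The classing was tested on 1400 simulated junctions of 200 genes, of which 0 were wrongly classed. Tools were Python 3.11.15, pandas 2.3.3 and scipy 1.17.1.

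Members, gene lists and named genes were chosen with earlier results of these data known. Named were the 10 members with the highest summed reads, the 10 highest usages with at least 100 reads at the end, the same among new pairings, the 10 genes with most members, the 10 unannotated exons with the most reads on their weaker junction, the 5 longest (1 of which is not reported here) and 5 shortest introns, 3 members per gene list, the 5 largest usage differences and 5 junctions on each side of the read minimum. The split into slid and near copies, the very short exons, the displacement sets and genes named for them were chosen after values were seen. Alternatives were other read minimums, 1 count alone, stricter gene and usage rules, and leaving out Smo.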

Additional observations from a re-analysis of the deposited data

How the results depend on the processing

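Counts followed the read minimum. At 5, 20 and 50 reads in both counts there were 22223, 6235 and 2602 members and 919, 227 and 73 unannotated exons, the share with at least 1 annotated end (74.5%) was 76.5%, 70.1% and 59.5%, and the share of new acceptors within 6 bases (31.9%) was 29.2%, 35.2% and 41.7%. New donors within 6 bases (11.5%) reached 13.4% at 50 reads. Requiring the minimum in the first or the second count alone gave 17121 to 22337 members, 692 to 726 exons, 71.8 to 73.7% with an annotated end, 29.6 to 30.6% of acceptors and 11.1 to 12.7% of donors within 6 bases. Counting ends within 2 bases as annotated raised that share to 84.2%, and leaving out Smo, an alternative chosen after seeing the data, to 76.9%. Without the conditions on C and the outer ends, also dropped after seeing the data, there were 19184 pairs around an unannotated stretch. With 50 reads at the shared end the median usage in the first count was 7.50%. At 10 points, 819 members were called different. Members in exactly 1 gene span (11745 members in 5496 genes), ends taken from any gene and the narrower usage denominator moved nothing beyond the margins, which were 1.5 times for counts, the counting interval for shares and the gap between the counts for usage. No paired analysis was possible because the series has 1 group. Depth limits the low members most, since those at the minimum differ by 1 read from junctions outside it. Other results had no alternative.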
